A study of Mus musculus with 16 samples.

Results

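CD4 T cells without detected Foxp3 were taken from MC38 tumors, a mouse colon adenocarcinoma line, in 4 single-cell libraries of sorted CD45+ cells. Of the 9083 cell barcodes in those libraries, 104 met the rule, out of 37609 barcodes in the whole series. The rule counted raw UMIs, the unique molecular identifiers that each stand for 1 captured transcript. It asked for at least 2 UMIs of Cd3e, Cd3d and Cd3g together, at least 1 of Cd4, 0 of Foxp3, 0 of Cd8a and Cd8b1 together, at most 1 of C1qa, C1qb and C1qc together, and at most 3 of Lyz2. All 104 cells also had at least 200 detected genes and at most 20% mitochondrial UMIs. Those 11 genes chose the cells, so their levels are given as a description only.

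CD4 T cells recognise peptides held by MHC class II molecules and, once activated, act mainly through other cells. Their CD40 ligand (gene Cd40lg) stimulates dendritic cells and B cells, and their cytokines steer macrophages and CD8 T cells. A separate kind of CD4 T cell, the regulatory T cell or Treg, is directed by the transcription factor Foxp3, restrains immune responses and often gathers in tumors.

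The study asked how loss of Aire, the regulator that lets the thymus display antigens of other tissues to developing T cells, changes the response to tumors when PD-1 is blocked. C57BL/6 mice aged 8 weeks, either Aire+/+ or Aire-/-, carried subcutaneous MC38 tumors and received 5 doses of anti-PD1 or of an isotype control antibody at 5 mg/kg each. Tumors and spleens were taken on day 19, sorted for CD45+ or CD8+ cells and loaded for droplet sequencing, which gave 16 libraries. The paper describes 3' libraries from these sorts and, together with T cell receptor sequencing, 5' libraries from sorted CD45+ or CD8+ cells. The kind is therefore not given here for single libraries. Each library was pooled over the mice of 1 condition, 4 to 6 mice for the tumors, so every condition had 1 tumor CD45+ library and no replicate. Unless stated otherwise, values come in the order of isotype then anti-PD1, first for Aire+/+ and then for Aire-/- mice.

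The 4 tumor CD45+ libraries held 2930, 2208, 1856 and 2075 cells past the filter, with 38930017, 28760714, 24639370 and 23282799 UMIs in all. Aire transcripts could not test the genotype labels: the tumor CD45+ libraries gave 0, 2, 1 and 0 Aire UMIs, none of them in the 104 cells, and a tag from 1 end of the transcript may lie outside the deleted part of the gene. Of the CD4 cells without Foxp3, 19, 33, 22 and 30 came from the 4 libraries, with 136876, 201667, 178409 and 207445 UMIs. Their median depth was 4978, 5142, 5872.5 and 5474 UMIs a cell, below the 8768, 8373, 10390 and 7886 of the Tregs beside them. In the CD8+ sorts the same rule found 1 barcode, in the splenic library of Aire+/+ mice with isotype, and 0 in the other 7 libraries. The barcodes of 2 members also occurred in another library, but neither of those was a member there.

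Few members lay at the edge of the rule for CD3, and more did for Cd4. The sum of the CD3 genes had a median of 14, 16, 20 and 18.5 UMIs and was exactly 2 in 2 of the 104 cells, whereas Cd4, a sparsely captured transcript, was exactly 1 in 31. C1q genes were at 0 in 93 members and at 1 UMI in 11, and Lyz2 was at 0 in 98. Just outside the rule stood 29 cells with a single Foxp3 UMI, 7 with 1 UMI of Cd8a and Cd8b1, 4 with 2 UMIs of the C1q genes, 0 with a CD3 sum of 1 and 0 with 4 UMIs of Lyz2. Levels are CPM, the UMIs of a gene for every 1000000 UMIs of the cells of that class. Cd40lg stood at 202 CPM over the 104 members and at 4.77 CPM in the cells with 1 Foxp3 UMI. Icos, a costimulatory receptor of activated T cells, stood at 1239.7 and 2063 CPM in the same groups.

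A shallow cell can miss a transcript that it holds. If the Tregs of each library were read at the median depth of its members, 10.98, 6.74, 5.17 and 4.97% of them would be expected to show 0 Foxp3 UMIs, or 10.1, 3.91, 1.29 and 2.34 cells. How many members were Tregs with an undetected Foxp3 transcript was not tested.

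Lists of marker genes were read for other cell types. Of the macrophage list, 6 of 9 genes lay outside the rule, and their sum was 109.6, 19.8, 22.4 and 4.82 CPM, with Cd68 the most abundant in both Aire+/+ libraries, Apoe leading in the Aire-/- isotype library with 1 UMI and Ms4a7 in the Aire-/- anti-PD1 library with 1 UMI. Mrc1 was at 0 in all 4 libraries. B cell genes summed to 7.31, 4.96, 0 and 4.82 CPM over 4 genes, with Ms4a1 at 0, and the erythroid list of 4 genes and the mast cell and basophil list of 3 genes had no UMI. The list of 5 monocyte and neutrophil genes outside the rule was carried by Ly6c2 alone, a gene that effector T cells share, at 592, 198, 454 and 231 CPM, with S100a8, S100a9, Chil3 and Ngp at 0. The 2 NKT cell genes summed to 73.1, 0, 0 and 48.2 CPM, mostly Klrb1c, and of the gamma-delta T cell list the 1 gene analysed here, Cd163l1, was at 0. Tumor and stromal genes, 6 in the list, summed to 14.6, 29.8, 16.8 and 28.9 CPM, with the endothelial and leukocyte adhesion gene Pecam1 as the most abundant and Col1a1, Col3a1 and Krt8 at 0.

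Dendritic cell genes, 9 in the list, summed to 1308, 605, 516 and 149 CPM in the members, highest with Aire+/+ isotype and lowest with Aire-/- anti-PD1. Cd74, the invariant chain of MHC class II, was the most abundant at 1081, 555, 476 and 91.6 CPM. It was found in 8, 14, 10 and 6 members. Flt3, Clec9a and Siglech were at 0 in all 4 libraries, and Xcr1, Itgax and Fscn1 were seen in 1 cell each, all with Aire-/- anti-PD1. The NK cell list of 6 genes summed to 1768, 34.7, 16.8 and 313 CPM, high in the Aire+/+ isotype library and, to a lesser extent, in the Aire-/- anti-PD1 library. Its most abundant genes there were Fcer1g and Tyrobp, signalling adaptors of NK cells that nearly every macrophage also expresses, and Klra8 was at 0 in all 4 libraries. With 2 or more of the NK genes Ncr1, Klrb1c and Klre1 there were 2 members in the Aire+/+ isotype library, 1 in the Aire-/- anti-PD1 library and 0 in the others.

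Single deep cells carried a large share of some sums. The deepest member held 41095, 19781, 32689 and 16325 UMIs, or 30.0, 9.81, 18.3 and 7.87% of all member UMIs of its library. In the Aire+/+ isotype library that cell had 3 of the 3 NK genes, 1 UMI of Cd4, 2689 UMIs of Gzmc and 262 of Spp1. With anti-PD1 in Aire+/+ mice the deepest member had 7 of 7 mitotic and cell cycle genes, and in the Aire-/- isotype library it had 6 of them together with 329 UMIs of Csf2 and 7 of Cd40lg. No doublet caller was run, and whether a deep barcode held more than 1 cell was not tested.

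CD4 T cells without Foxp3 made up 0.648, 1.49, 1.19 and 1.45% of all cells of the tumor CD45+ libraries. Exact Clopper-Pearson 95% intervals, which cover counting error only here as in every interval below, ran from 0.391 to 1.01%, 1.03 to 2.09%, 0.744 to 1.79% and 0.978 to 2.06%. The share was lowest in the Aire+/+ isotype library, whose interval did not reach that of the Aire+/+ anti-PD1 library, while the other intervals overlapped. With cells thinned to 2000 UMIs the shares were 0.887, 1.40, 0.862 and 1.30%, with intervals of 0.580 to 1.30 and 0.956 to 1.99% in the Aire+/+ libraries, and with no C1q or Lyz2 limit they were 0.990, 1.59, 1.72 and 1.73%, with 0.664 to 1.42 and 1.11 to 2.2%. Both pairs of intervals overlapped, and the thinned share was lowest with Aire-/- isotype. Among all cells gated as CD4, the members were 17.1, 36.3, 46.8 and 39.0%, the rest being Tregs. Intervals for this share were 10.6 to 25.4%, 26.4 to 47.0%, 32.1 to 61.9% and 28.0 to 50.8%. Tregs thus outnumbered the members in all 4 tumor libraries, most in the Aire+/+ isotype tumors, whereas in the spleen 77.0, 79.6, 81.25 and 78.8% of CD4 cells lacked Foxp3. For each CD8 T cell in the same tumor library there were 0.160, 0.176, 0.118 and 0.0460 members, fewest in the Aire-/- anti-PD1 library with its 652 CD8 T cells. With 1 library a condition, these differences had no test beyond counting error.

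Comparison with the Foxp3+ Tregs of the same 4 libraries asked which genes separate both kinds of tumor CD4 T cell. The UMIs of each class were summed in each library, and the 4 libraries served as replicates in edgeR with the library as a block. The spread is thus that of the class difference between libraries, which differ in genotype and treatment. Of 3381 genes tested, 224 were higher in the cells without Foxp3 (6.63%) and 127 lower (3.76%), together 10.4%, at a Benjamini-Hochberg adjusted p of at most 0.05. Of these, 77 and 3 were under the level of the low-count filter, 40.6 CPM, in some Treg library and were tested through the members. The members' own level thus decided that the 77 were tested. Among the 77 were Cd40lg, Tcf7, Bcl2, Ramp3, S1pr1, Evl, Ly6c2, Gramd3 and Itga4 of the largest folds. From the gene lists Lef1, Fosb, Stat4, Il18r1, Nrp1, Sh2d1a, Ctsw, Fasl, Serpinb9, Cxcr4 and Tgfbr2 were also among them. Libraries given beside a log2 fold are those that had its direction. Cd40lg was at 132, 74.4, 235 and 342 CPM in the members and at 1.04, 1.63, 0 and 2.18 CPM in the Tregs. Every member value thus lay above every Treg value, and the whole class of 222 Tregs held 3 UMIs against 146 in the 104 members, a log2 ratio of 7.29 (95% interval 5.71 to 9.58). In the test Cd40lg was higher in 4 of 4 libraries (adjusted p = 4.17e-06). Tcf7, a transcription factor of resting and memory T cells, had 65.8, 119, 84.1 and 62.7 CPM in the members, and the Tregs held 1 UMI. Its log2 ratio was 7.61 (95% interval 5.08 to 12.94), and it was higher in 4 of 4 libraries (adjusted p = 4.64e-05).

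The other 8 of the 10 largest folds above Tregs had various roles. Bcl2, which protects lymphocytes from apoptosis, was at 212, 129, 56.1 and 149 CPM against 2.07, 4.88, 3.51 and 13.1 CPM in Tregs (log2 fold 4.88, adjusted p = 4.94e-05, 4 of 4 libraries). Ramp3, a partner of the calcitonin receptor-like receptor, reached 102, 407, 286 and 284 CPM against 12.4, 3.25, 10.5 and 8.70 CPM (log2 fold 4.86, adjusted p = 4.64e-05, 4 of 4 libraries). S1pr1, the receptor that guides T cells out of tissues, stood at 212, 243, 135 and 255 CPM against 13.5, 21.1, 21.1 and 93.6 CPM (log2 fold 2.87, adjusted p = 7.96e-04, 4 of 4 libraries). For each of these genes the 4 member values lay above the 4 Treg values. Evl, an actin regulator, ranged from 74.4 to 124 CPM against 0 to 8.70 CPM in Tregs, with a log2 fold of 4.80 (adjusted p = 2.03e-04). Ly6c2, a surface protein of effector and memory T cells whose tags may also come from the near-identical Ly6c1, ranged from 198 to 592 against 7.25 to 105 CPM (log2 fold 4.04, adjusted p = 6.55e-04). Itga4, the integrin chain used to enter inflamed tissue, ranged from 62.7 to 134 against 3.51 to 15.5 CPM (log2 fold 2.88, adjusted p = 7.96e-04), and Gramd3 from 106 to 241 against 14.6 to 23.9 CPM (log2 fold 3.21, adjusted p = 4.64e-05). All of these were higher in 4 of 4 libraries. Ifitm1 split the members at 21.9, 54.5, 757 and 342 CPM, with the Aire-/- libraries high (log2 fold 2.88, adjusted p = 0.0183, 3 of 4 libraries), and lost its call without the Aire-/- isotype (adjusted p = 0.144) or the Aire-/- anti-PD1 library (adjusted p = 0.0929).

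The largest decreases against Tregs held the noncoding transcript Ppp1r3fos, at 7.31, 9.92, 5.61 and 4.82 CPM in members and 95.3, 176, 119 and 169.7 CPM in Tregs (log2 fold -4.20, adjusted p = 4.64e-05, 4 of 4 libraries). Rapsn, known as a scaffold of acetylcholine receptors, ranged from 0 to 24.8 CPM against 43.5 to 99.5 CPM in Tregs (log2 fold -2.67, adjusted p = 0.0104). Bmyc, a relative of Myc, ranged from 14.5 to 51.1 against 78.3 to 185 CPM (log2 fold -1.84, adjusted p = 8.31e-04), and the phospholipase gene Pla2g12a from 4.82 to 21.9 against 45.7 to 76.4 CPM (log2 fold -1.83, adjusted p = 0.00809). The replication licensing gene Mcm5 ranged from 7.31 to 28.0 against 70.5 to 93.6 CPM (log2 fold -1.88, adjusted p = 0.00377). Penk, which encodes the opioid precursor proenkephalin, had 21.9, 307, 28.0 and 0 CPM against 762, 979, 35.1 and 135 CPM in Tregs (log2 fold -2.49, adjusted p = 0.011) and was high in the members only with Aire+/+ anti-PD1. Without that library it had too few UMIs to be tested, and the histone gene Hist1h1b and the thymidine kinase gene Tk1 were at adjusted p of 0.0715 and 0.0647. Without the Aire-/- anti-PD1 library Tk1, Top2a and the laminin gene Lamc1 were at 0.0872, 0.121 and 0.149, and Lamc1 was at 0.122 without the Aire-/- isotype library. Their log2 folds were -1.93 for Hist1h1b, -2.03 for Tk1, -1.91 for Lamc1 and -1.77 for Top2a. Without each library in turn, in the usual order, 169, 187, 181 and 100 genes were higher and 100, 135, 108 and 45 lower.

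Lists of genes with known roles, described by counts and medians beside a median log2 fold of 0.0090 over all tested genes, sorted into those above and those below the Tregs. Without the genes tested through the members, those higher were 2 of 5 resting, 10 of 12 immediate early, 2 of 9 Th1, 2 of 8 chemokine, 1 of 8 inhibitory, 0 of 8 help, 0 of 3 cytotoxic, 0 of 3 follicular helper and 0 of 9 cytokine receptor genes. Over all genes so restricted, 147 of 2724 were higher. Of the resting and circulating list, 10 genes were tested and 6 were higher, with a median log2 fold of 1.62. Of the 6, Tcf7, S1pr1, Bcl2 and Lef1 were tested through the members. Called with any 1 library left out were 4 of the 6, Tcf7, S1pr1, Klf2 and Bcl2, of which only Klf2 also passed the filter in Tregs. Klf2, the factor that maintains S1pr1 and other homing genes, was at 1191, 1829.8, 762 and 569 CPM against 339, 389, 281 and 268 CPM in Tregs (log2 fold 1.81, adjusted p = 1.64e-04, 4 of 4 libraries). Of 14 immediate early genes, switched on within minutes of a stimulus, 11 were higher (median 0.78). Fos, an AP-1 subunit, was at 942, 183, 1906 and 738 CPM against 263, 125, 323 and 387 CPM (log2 fold 1.67, adjusted p = 0.00383, 4 of 4 libraries). Fosb, its relative, was at 87.7, 54.5, 179 and 222 against 19.7, 26.0, 49.2 and 56.6 CPM (log2 fold 1.94, adjusted p = 7.46e-04, 4 of 4 libraries). For both genes the member value of the low Aire+/+ anti-PD1 library lay within the Treg range. The early response gene Ier2 ranged from 481 to 1020.1 against 234 to 326 CPM (log2 fold 1.49, adjusted p = 4.73e-04), and both groups stayed apart. Leaving out a library kept 7, 10, 7 and 5 of the 11 calls.

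Of 15 regulatory T cell genes tested, 10 were lower in the members and 0 higher, with a median log2 fold of -1.07. Il2ra, the high-affinity chain of the IL-2 receptor, was at 424, 516, 179 and 159 CPM in members and 945, 951, 1071 and 1168 CPM in Tregs (log2 fold -1.65, adjusted p = 0.00473, 4 of 4 libraries). Ikzf2, a transcription factor that stabilises Tregs, was at 168, 263, 129 and 121 against 400.0, 462, 495 and 433 CPM (log2 fold -1.28, adjusted p = 0.00315, 4 of 4 libraries). The chemokine receptor Ccr8 was at 219, 347, 185 and 241 against 682, 663, 442 and 509 CPM (log2 fold -1.07, adjusted p = 0.0018, 4 of 4 libraries). For these genes no member value reached the lowest Treg value, yet none of the members' sums was at 0. Areg, a growth factor of tissue repair, was at 489, 1259.5, 336 and 670.1 CPM against 1273, 2468, 2054 and 1288 CPM (log2 fold -1.29, adjusted p = 0.00395, 4 of 4 libraries), its highest member value just under the lowest Treg value. Leaving out the Aire-/- anti-PD1 library kept 6 of the 10 calls, Il2ra, Ikzf2, Areg, Tnfrsf4, Ctla4 and Ccr8, and leaving out any other library kept all 10. Help and costimulation genes split, with Cd40lg higher and Icos, Tnfrsf4, Tnfrsf18 and Tnfrsf9 lower among 10 tested (median -0.47). Tnfrsf4, the costimulatory receptor OX40, was at 1074, 2613, 874 and 1022 CPM in members and 3557, 3221, 3259 and 2807 CPM in Tregs (log2 fold -1.19, adjusted p = 0.00395, 4 of 4 libraries), and without the Aire-/- anti-PD1 library it was the only one of the 4 lower genes still called. Of 9 inhibitory receptor genes, 5 were lower and 2 higher (median -0.91). Ctla4, the inhibitory receptor that Tregs carry constantly, was at 1016, 1259.5, 891 and 809.9 against 1854, 2144, 1647 and 2635 CPM (log2 fold -0.91, adjusted p = 0.00473, 4 of 4 libraries). In turn without each library 3, 4, 2 and 1 of the 5 lower and 2, 1, 1 and 0 of the 2 higher inhibitory genes were called.

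Effector lists were mixed against Tregs. Of 12 Th1 genes, 5 were higher and 1 lower (median 0.70). Stat4, the signal transducer of IL-12, was at 109.6, 198, 207 and 241 CPM against 51.8, 58.5, 38.6 and 74.0 CPM (log2 fold 1.85, adjusted p = 5.56e-04, 4 of 4 libraries), and Bhlhe40, a factor for cytokine production, ranged from 504 to 1075 against 279.6 to 407 CPM (log2 fold 1.25, adjusted p = 0.00132). Of the 2 Th2 genes tested, Gata3, the lineage factor of Th2 cells that Tregs also use, ranged from 217 to 325 against 109.8 to 149.6 CPM (log2 fold 1.10, adjusted p = 0.00482), and Ccr8 was lower. Of 8 cytotoxic genes, 3 were higher and 0 lower (median 1.11), all 3 tested through the members. Serpinb9 was at adjusted p of 0.0651 and 0.0872 without the Aire-/- isotype and anti-PD1 libraries in turn. Ctsw was at 453, 174, 168 and 193 CPM against 35.2, 30.9, 63.2 and 95.7 CPM (log2 fold 2.34, adjusted p = 0.00337, 4 of 4 libraries). Fasl, the death ligand, was at 146, 164, 61.7 and 227 against 30.0, 39.0, 38.6 and 39.2 CPM (log2 fold 2.18, adjusted p = 7.30e-04, 4 of 4 libraries). Gzmb was high in both classes, 7415, 2068, 1249.9 and 1147 CPM in members and 5524, 4287, 4334 and 3947 CPM in Tregs, and was not called (adjusted p = 0.0891). The NK cell marker list was highest in the Aire+/+ isotype library, where Ctsw and Gzmb were also highest. Without the cells with NK genes 77 of 81 named calls held. Of 12 residency genes, 3 were higher and 5 lower (median -0.33). Rgs1, a brake on chemokine signalling in tissue T cells, was at 1549, 1775, 1530.2 and 1330.5 CPM against 606, 693, 681 and 677 CPM (log2 fold 1.36, adjusted p = 8.40e-05), and the integrin chain Itgb1 at 431, 486, 275 and 453 against 85.0, 63.4, 70.2 and 122 CPM (log2 fold 2.44, adjusted p = 4.64e-05). Lgals1, a galectin of activated and regulatory T cells, ranged from 1646 to 2040.3 against 3089.7 to 4048 CPM (log2 fold -0.77, adjusted p = 0.00238), and Vim, an intermediate filament protein, from 2180.4 to 3324 against 4143 to 5124 CPM (log2 fold -0.75, adjusted p = 0.00328). Leaving out each library kept 4, 5, 3 and 2 of the 5 lower calls and 3, 3, 3 and 2 of the 3 higher ones.

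Of 16 interferon response genes 3 were higher than in Tregs and 0 lower (median 0.11), and Ifit1 was at adjusted p of 0.102 and 0.211 without the Aire+/+ isotype and anti-PD1 libraries in turn and was not called without Aire-/- anti-PD1. Ifit3, an interferon-induced antiviral gene, ranged from 174 to 460.3 CPM against 82.9 to 182 CPM (log2 fold 1.55, adjusted p = 0.00403). Cell cycle genes had 0 of 13 higher and 2 lower, and 1 of these, Mcm5, was called with any 1 library left out, with Top2a ending as given above. All 13 fitted values were below 0, with a median of -0.88. In the chemokine list, 3 of 9 were higher and 3 lower, and Cxcr4, the receptor for CXCL12, at 101 to 238 CPM against 23.8 to 66.7 CPM (log2 fold 2.07, adjusted p = 0.00132), was the 1 called with any 1 library left out, with 2, 1, 1 and 2 higher and 3, 3, 1 and 0 lower calls kept in turn. Tgfbr2, the TGF-beta receptor, was higher among 10 cytokine receptors (129 to 174 against 37.4 to 52.7 CPM, log2 fold 2.0, adjusted p = 3.00e-04). Cxcr4 and Tgfbr2 were both tested through the members. Of 8 T cell receptor and signalling genes outside the rule, 1 was higher, and Cd2 was lower, the latter at adjusted p of 0.0858 without the Aire-/- anti-PD1 library. Sh2d1a was higher and Izumo1r and Maf lower among 4 follicular helper genes. None of those 3 calls held without the Aire-/- isotype library (adjusted p = 0.124, 0.129 and 0.0578) or the Aire-/- anti-PD1 library, and Sh2d1a lost its call whichever of the 4 was left out. Of 7 heat shock genes, 2 were higher, Dnaja1 and Dnajb1, with 1, 0, 0 and 0 calls kept in turn. The only Th17 gene tested, Rora, was not called by edgeR or DESeq2 (unadjusted p under 0.05 in 0 of 1).

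**Figure D1:**
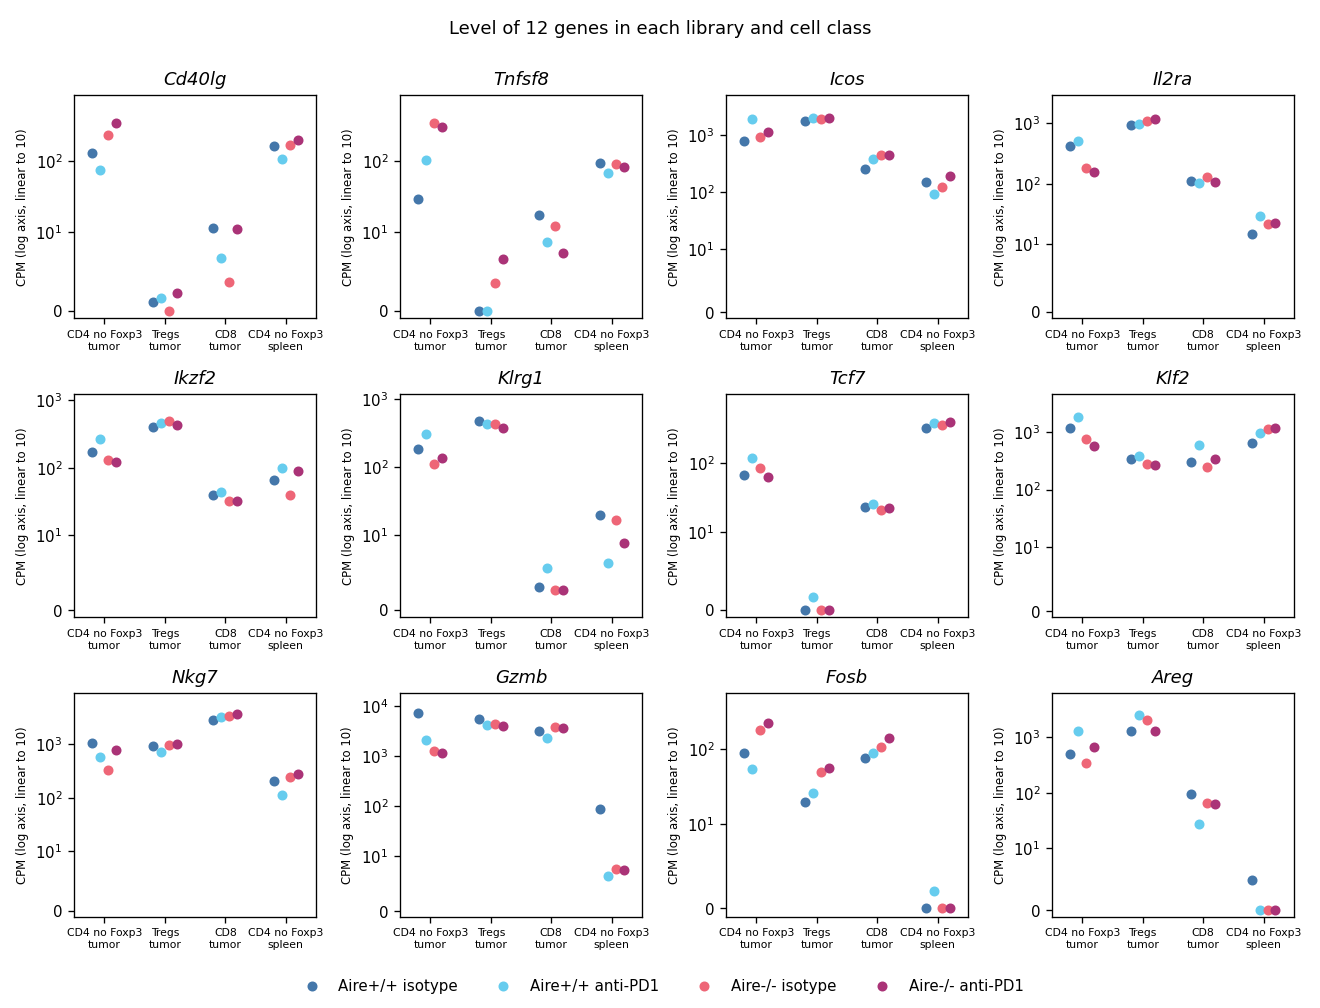
Level of 12 genes in CPM (symmetric log axis) in each library for tumor CD4 T cells without Foxp3, tumor Tregs, tumor CD8 T cells and splenic CD4 T cells without Foxp3, each point being the summed UMIs of 1 class in 1 library.

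Comparison with tumor CD8 T cells of the same libraries asked what marks the CD4 cells among T cells without Foxp3. CD8 T cells were 119, 188, 187 and 652 cells with a median depth of 9877, 8676.5, 10143 and 9006 UMIs. Of 6423 genes tested, 302 were higher in the members (4.7%) and 215 lower (3.35%), together 8.05%, and all 20 genes named for their large folds stayed called when any 1 library was left out. Genes under the filter level, 13.2 CPM, in some CD8 library were 71 of the higher and 0 of the lower genes. The 10 largest increases named below were all among the 71, as were Il6ra, Ebi3 and Ifngr2 of the lists. They were tested through the members, so the members' own level decided that they were tested. In turn without each library, 203, 162, 184 and 233 genes were higher and 153, 80, 115 and 127 lower. Il10, a cytokine that restrains immune responses, was at 109.6, 233, 168 and 28.9 CPM in members and 1.53, 1.02, 2.71 and 0.590 CPM in CD8 T cells (log2 fold 6.26, adjusted p = 1.07e-06, 4 of 4 libraries). In the Aire-/- anti-PD1 library all of its 6 UMIs lay in 1 cell. Il1rl1, the IL-33 receptor of Th2 cells and tissue Tregs, was at 14.6, 129, 67.3 and 38.6 against 1.53, 0.512, 2.26 and 0 CPM (log2 fold 6.08, adjusted p = 1.24e-04, 4 of 4 libraries). Klrg1, an inhibitory lectin receptor of effector T cells and tissue Tregs, was at 183, 312, 112 and 135 against 3.07, 5.64, 2.71 and 2.65 CPM (log2 fold 5.59, adjusted p = 1.73e-07, 4 of 4 libraries), and in the Aire-/- anti-PD1 library 1 cell held all 28 UMIs. All 4 member values of these genes lay above all 4 CD8 values.

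Ecm1, a secreted protein made by Th2 cells and Tregs, split into a high Aire+/+ pair and a low Aire-/- pair, at 1059, 496, 78.5 and 72.3 CPM, all above the CD8 T cells at 7.67, 19.0, 6.33 and 3.69 CPM (log2 fold 4.98, adjusted p = 4.22e-05, 4 of 4 libraries). In the Aire+/+ isotype library 1 cell held 127 of the 145 UMIs of Ecm1. Without that cell the log2 ratio of Aire-/- over Aire+/+ under isotype was -0.82, under 2-fold. Maf, a factor for IL-10 and follicular help, was at 132, 362, 123 and 101 CPM against 3.07, 4.61, 5.88 and 5.16 CPM (log2 fold 4.95, adjusted p = 6.02e-06, 4 of 4 libraries). The tetraspanin gene Cd81 ranged from 14.5 to 124 against 1.53 to 2.71 CPM (log2 fold 4.83, adjusted p = 8.18e-05). Izumo1r, the folate receptor FR4 of Tregs and anergic CD4 cells, ranged from 65.8 to 233 against 1.53 to 7.52 CPM (log2 fold 4.08, adjusted p = 4.42e-05), and Ramp3 from 102 to 407 against 3.83 to 21.5 CPM (log2 fold 4.08, adjusted p = 1.07e-06). Cd40lg was in this group too, against 11.5, 6.66, 3.62 and 11.1 CPM in CD8 T cells (log2 fold 4.57, adjusted p = 1.99e-05, 4 of 4 libraries). Tnfsf8, the CD30 ligand, was at 29.2, 104, 348 and 304 CPM in members, low with Aire+/+ isotype, and at 17.6, 8.71, 12.2 and 7.37 CPM in CD8 T cells (log2 fold 4.15, adjusted p = 3.92e-04, 4 of 4 libraries).

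Genes lower than in CD8 T cells were led by some without a UMI in any member. Serpine2, a protease inhibitor gene, was at 0 in the members and at 64.4, 97.9, 154 and 142 CPM in CD8 T cells, at least 31.1-fold lower against a floor of 3 counts over the members. Adgrg5, an adhesion receptor, was at least 17.9-fold lower, with 50.2 to 83.6 CPM in CD8 T cells. Gm156, a predicted lectin-like gene, was at least 13.6-fold and Serpinb9b, a granzyme inhibitor relative, at least 9.68-fold lower, with 46.8 to 87.1 and 25.6 to 107 CPM in CD8 T cells. Their adjusted p values were 1.24e-04, 5.66e-04, 7.95e-04 and 0.00193, lower in 4 of 4 libraries for each. Gzmf, a granzyme whose tags may be shared with its near-identical relatives, had 2 UMIs in the members against 2861, 1687, 2248 and 1923 CPM in CD8 T cells, a log2 ratio of -9.53 (95% interval -12.58 to -7.68). The neuronal and T cell surface gene Nrn1 and the inhibitory receptor gene Cd160 also had 2 UMIs each, with log2 ratios of -4.37 (95% interval -7.42 to -2.51) and -4.39 (95% interval -7.44 to -2.53). Xcl1, the chemokine that draws cross-presenting dendritic cells, was at 21.9, 0, 56.1 and 24.1 CPM against 308, 507, 451 and 303 CPM (log2 fold -4.04, adjusted p = 1.33e-04, 4 of 4 libraries). Ifitm1 was against 1806, 2490.2, 3423 and 2659 CPM (log2 fold -3.75, adjusted p = 7.07e-04), with Ifitm genes being close relatives, and Klrd1, the CD94 chain of NK receptors, at 117, 9.92, 106 and 111 against 846, 861, 1044 and 1131 CPM (log2 fold -3.66, adjusted p = 7.44e-05).

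Over all genes tested against CD8 T cells the median log2 fold was -0.0040. Without the genes under the filter level in CD8 T cells, those higher were 7 of 11 help, 6 of 11 regulatory, 1 of 2 follicular helper, 1 of 2 Th2 and 1 of 10 cytokine receptor genes. Over all genes so restricted, 231 of 5541 were higher. Of 14 help and costimulation genes, 9 were higher and 0 lower (median 1.14). Icos was at 789, 1929, 914 and 1147 CPM against 256, 382, 443 and 456 CPM (log2 fold 1.53, adjusted p = 3.80e-04, 4 of 4 libraries), and Tnfrsf4 was against 252, 273, 332 and 204 CPM in CD8 T cells (log2 fold 2.23, adjusted p = 1.33e-04, 4 of 4 libraries), with no overlap for either. The calls kept without each library were 9, 6, 5 and 6, and Cd40lg, Icos, Tnfrsf4, Tnfsf8 and Cd5 were in every set. Of 14 regulatory genes, 9 were higher and 0 lower (median 1.16). Areg, Ctla4, Ikzf2, Il2ra, Klrg1, Tnfrsf18 and Tnfrsf4 were thus above CD8 T cells and below Tregs. Ikzf2 was against 39.9, 44.1, 32.5 and 31.6 CPM in CD8 T cells (log2 fold 2.11, adjusted p = 4.42e-05) and Areg against 95.1, 27.2, 65.1 and 63.0 CPM (log2 fold 3.34, adjusted p = 5.35e-04). Il2ra was at adjusted p of 0.0695 and 0.0933 without the Aire+/+ isotype and anti-PD1 libraries in turn, and Tnfrsf18 at 0.0977 and 0.0809 without Aire+/+ anti-PD1 and Aire-/- isotype. Against Tregs, Klrg1 and Tnfrsf18 were at 0.0642 and 0.0671 without Aire-/- anti-PD1. Of 5 follicular helper genes, 4 were higher (median 3.22), Izumo1r, Maf, Il6ra and Batf, the last at adjusted p of 0.100 and 0.0790 without the Aire-/- isotype and anti-PD1 libraries in turn, although the defining receptor gene Cxcr5 held 6 UMIs over all members and Bcl6 3.

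Resting genes were also above CD8 T cells, 5 of 12 higher and 0 lower (median 0.50), each kept with any 1 library left out. S1pr1 was against 33.7, 40.0, 30.7 and 43.5 CPM in CD8 T cells (log2 fold 2.44, adjusted p = 6.47e-06, 4 of 4 libraries), and no member value reached down to a CD8 value. All cytotoxic granule genes had fitted values below 0, and 6 of 16 were called lower (median -1.5), all 6 with any 1 library left out. Nkg7, a granule protein needed for killing, was at 1074, 585, 325 and 776 CPM against 2878, 3221, 3448 and 3636 CPM (log2 fold -2.41, adjusted p = 1.24e-04, 4 of 4 libraries). Gzmb was not called, against 3164, 2302, 3851 and 3633 CPM in CD8 T cells, and neither was Prf1, the gene of perforin, at 1176, 4.96, 22.4 and 111 CPM, of which 1 cell of the Aire+/+ isotype library held 159 of 161 UMIs. The NK markers given above were highest in the same library. Of the 89 named calls 88 could still be tested without the cells with NK genes, and all 88 held. Of 17 Th1 genes, 1 was higher and 6 lower (median -0.46). Ifng, the cytokine that activates macrophages and antigen presentation, was at 43.8, 19.8, 151 and 111 CPM against 1063, 710.3, 862 and 742 CPM (log2 fold -3.48, adjusted p = 1.17e-04, 4 of 4 libraries). All were under the CD8 values. The lower Th1 calls kept without each library were 5, 3, 4 and 6, and the higher gene Cxcr3 kept its call in 1 of those 4 fits, the one without the Aire-/- isotype library.

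Among 12 inhibitory receptor genes, Pdcd1, Lag3, Havcr2 and Cd160 were lower with any 1 library left out, and Ctla4 and Nt5e were higher, Nt5e losing its call in all of those fits but the one without the Aire-/- isotype library (median -0.18). Pdcd1, the gene of PD-1 itself, was at 132, 486, 235 and 376 CPM against 530.0, 771, 677 and 698 CPM (log2 fold -1.26, adjusted p = 0.00185). Th2 genes had 2 of 3 higher (median 1.77), Il1rl1 and Gata3, the latter at 217 to 325 against 62.4 to 76.1 CPM (log2 fold 1.77, adjusted p = 1.33e-04), and the only Th17 gene tested, Rora, was higher at 124 to 367 against 62.1 to 94.8 CPM (log2 fold 1.41, adjusted p = 4.39e-04). Of 11 chemokine genes, 3 were higher and 5 lower (median -0.68), with 4, 4, 3 and 4 lower and 2, 2, 3 and 2 higher calls kept in turn. Ccr2, the receptor that brings cells to sites of inflammation, was at 234, 273, 241 and 198 CPM against 36.8, 40.5, 52.4 and 49.8 CPM (log2 fold 2.33, adjusted p = 1.80e-05, 4 of 4 libraries), and Ccl4, a chemokine of activated CD8 T cells, at 102, 659.5, 471 and 559 against 1397, 1433, 1841 and 1826 CPM (log2 fold -2.05, adjusted p = 0.00111). Interferon response genes had 7 of 16 higher (median 0.69), of which 2, 2, 3 and 7 were called without each library and Isg15 and Gbp2 always. Immediate early genes had 7 of 15 higher and 1 lower (median 0.72), with 5, 7, 4 and 6 of the 7 kept. Nfkbia, the inhibitor made by NF-kB signalling, ranged from 2221 to 2735 against 683 to 1167 CPM (log2 fold 1.45, adjusted p = 8.05e-05), and the lower gene, Nr4a2, from 21.9 to 168 against 166 to 304 CPM (log2 fold -1.41, adjusted p = 0.00861). Of 13 residency genes 2 were higher and 6 lower (median -0.32), the calls kept being 6, 2, 2 and 3 lower and 1, 1, 2 and 1 higher. Of 16 cell cycle genes 1, Mcm5, was lower, and of 11 cytokine receptors 2 were higher, Ifngr2 and Il27ra, the latter in no fit with 1 library left out. Cd2, an adhesion receptor, was higher among 8 signalling genes. Hspe1 was lower among 9 heat shock genes, but was at adjusted p of 0.0905 and 0.0763 without the Aire+/+ anti-PD1 and the Aire-/- isotype library in turn.

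Comparison with splenic CD4 T cells chosen by the same rule asked which genes mark the tumor site. The spleen held 437 such barcodes, of which 434 passed the filter, 67, 90, 143 and 134 in the 4 splenic CD45+ libraries, with a median depth of 5295, 5002.5, 5374 and 4678.5 UMIs. Tumor and splenic libraries were paired by condition. Tumors were dissociated with enzymes and spleens mechanically, so tissue and preparation cannot be told apart. Of 4051 genes tested, 555 were higher in tumor (13.7%) and 440 lower (10.9%), together 24.6%, and the 20 genes with the largest folds stayed called with any 1 condition left out. The 10 increases among them were under the filter level, 32.6 CPM, in some splenic library, so tumor libraries brought them into the test. Areg had 2 UMIs in all splenic members, a log2 ratio of 9.72 (95% interval 7.86 to 12.77). Atf3, a stress-induced transcription factor, was at 73.1, 69.4, 56.1 and 246 CPM in tumor and at 0 in the spleen, at least 91.7-fold higher against 3 counts over the splenic members. Mt1, a metal-binding metallothionein, was at 416, 188, 398 and 275 CPM with 3 splenic UMIs, a log2 ratio of 7.91 (95% interval 6.34 to 10.20). All splenic values of these genes lay under all tumor values.

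AP-1 genes were among the largest differences to the spleen. Fosb had 1 splenic UMI, a log2 ratio of 8.35 (95% interval 5.84 to 13.67). Fos was against 7.39, 22.9, 11.5 and 10.4 CPM in spleen (log2 fold 6.08, adjusted p = 1.96e-08, 4 of 4 conditions), and Fosl2 ranged from 124 to 174 against 0 to 6.25 CPM (log2 fold 5.70, adjusted p = 1.39e-08). Gzmb, the gene of a killing protease, was against 88.7, 6.25, 7.65 and 7.41 CPM in spleen (log2 fold 7.01, adjusted p = 4.70e-12, 4 of 4 conditions). Ccl4 ranged from 102 to 659.5 against 0 to 24.6 CPM (log2 fold 6.54, adjusted p = 5.99e-07), and its tumor UMIs lay in 1, 3, 2 and 5 cells. The cell cycle inhibitor gene Cdkn1a ranged from 207 to 292 against 0 to 12.3 CPM (log2 fold 5.73, adjusted p = 3.26e-09), and Ifitm3 from 191 to 742 against 0 to 17.9 CPM (log2 fold 5.70, adjusted p = 7.04e-08). Adjusted p for Areg, Atf3, Mt1 and Fosb were 6.46e-11, 2.77e-07, 8.70e-11 and 1.94e-08. Each of these genes was higher in tumor in 4 of 4 conditions.

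Leading the decreases in tumor, Igfbp4, a growth factor binding protein of naive T cells, was at 65.8, 9.92, 28.0 and 0 CPM in tumor and 421, 852, 381 and 455 CPM in spleen (log2 fold -4.53, adjusted p = 4.86e-07, 4 of 4 conditions). Dapl1, another gene of naive T cells, was at 7.31, 14.9, 0 and 0 against 51.7, 144, 121 and 91.8 CPM (log2 fold -4.22, adjusted p = 4.74e-06). Id3, which holds T cells in a resting state, was at 0, 4.96, 11.2 and 14.5 against 108, 77.1, 130.1 and 147 CPM (log2 fold -3.77, adjusted p = 1.43e-06). No tumor value of these genes reached a splenic one. The Notch pathway gene Dtx1 ranged from 0 to 19.3 against 126 to 179 CPM (log2 fold -3.76, adjusted p = 4.78e-07), the detoxifying enzyme gene Ephx1 from 0 to 14.9 against 68.9 to 80.0 CPM (log2 fold -3.71, adjusted p = 2.71e-05) and Pik3ip1, a brake on PI3 kinase, from 0 to 14.9 against 71.1 to 98.5 CPM (log2 fold -3.55, adjusted p = 1.27e-05). The cytoskeletal gene Actn1 ranged from 9.64 to 29.2 against 123 to 213 CPM (log2 fold -3.50, adjusted p = 6.04e-07). Atp1b1, Nsg2 and Fam101b completed the list, with log2 folds of -2.81, -2.77 and -2.64. All were lower in 4 of 4 conditions.

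Over all tested genes the median log2 fold of tumor against spleen was -0.046. Genes under the level of the low-count filter in some splenic library were tested only where tumor libraries reached it. They were 972 genes, 244 of them higher and 3 lower, against 311 and 437 of the other 3079. Among such genes were Fos, Fosb, Areg, Gzmb, Atf3, Mt1, Ccl4, Cdkn1a, Ifitm3 and Fosl2 of the largest folds. Dusp1, Ifit3, Fasl, Il2ra, Klrg1, Bhlhe40, Tnfsf11, Ccr8, Klrd1 and Fcer1g were others. Without them 6 of 7 immediate early, 9 of 10 interferon, 5 of 5 regulatory, 2 of 2 cytotoxic, 4 of 6 inhibitory, 7 of 8 residency, 3 of 6 Th1, 1 of 4 chemokine, 4 of 9 cytokine receptor, 1 of 1 Th2 and 5 of 11 help genes were higher, and no resting gene dropped out. Of 13 immediate early genes 12 were higher and 0 lower (median 3.20), all 12 with any 1 condition left out. Junb, an AP-1 subunit, was at 3229, 2380.2, 4209 and 3876 CPM in tumor and 261, 338, 291 and 262 CPM in spleen (log2 fold 3.55, adjusted p = 7.34e-10, 4 of 4 conditions), and Dusp1, a phosphatase that damps MAP kinases, ranged from 1123 to 1490.4 against 22.2 to 62.5 CPM (log2 fold 4.96, adjusted p = 7.01e-11). Heat shock genes, another stress group, had 0 of 7 higher and 1 lower (median 0.17). Of 16 interferon response genes 15 were higher (median 2.25). Isg15, a ubiquitin-like interferon product, was at 1089, 1215, 807 and 1152 CPM against 76.4, 68.8, 74.0 and 35.5 CPM (log2 fold 4.07, adjusted p = 4.61e-10, 4 of 4 conditions), and Ifit3 was against 12.3, 16.7, 44.6 and 2.96 CPM in spleen (log2 fold 3.99, adjusted p = 1.42e-06). Of 11 regulatory genes 11 were higher (median 3.73), each with any 1 condition left out. Ctla4 was against 66.5, 62.5, 39.5 and 57.8 CPM in spleen (log2 fold 4.13, adjusted p = 6.46e-11, 4 of 4 conditions), Il2ra against 14.8, 29.2, 21.7 and 22.2 CPM (log2 fold 3.65, adjusted p = 3.07e-08, 4 of 4 conditions) and Klrg1 against 19.7, 6.25, 16.6 and 8.89 CPM (log2 fold 3.73, adjusted p = 2.19e-07).

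Of 14 resting genes 9 were lower in tumor and 0 higher (median -1.31). Lef1, a partner of Tcf7 in naive cells, was at 109.6, 79.3, 67.3 and 43.4 CPM against 342, 475, 406 and 375 CPM (log2 fold -2.47, adjusted p = 4.00e-07, 4 of 4 conditions), and Tcf7 was against 313, 379, 351 and 389.6 CPM (log2 fold -2.13, adjusted p = 4.70e-07). Klf2 did not follow, against 653, 971, 1143 and 1169 CPM in spleen (adjusted p = 0.903), nor did Ccr7, the lymph node homing receptor, at 446, 798, 342 and 96.4 against 301, 502, 556 and 447 CPM (adjusted p = 0.547). Of 13 help genes 7 were higher and 2 lower (median 0.85). Icos was against 150.3, 91.7, 124 and 193 CPM in spleen (log2 fold 3.04, adjusted p = 4.97e-08, 4 of 4 conditions). Tnfsf11, the RANK ligand, was against 39.4, 41.7, 29.3 and 25.2 CPM, higher in 3 of 4 conditions and below its splenic value with Aire+/+ isotype (log2 fold 2.59, adjusted p = 2.63e-04). Cd40lg, by contrast, was at similar levels, against 165, 106, 169.7 and 198 CPM in spleen, higher in tumor in both Aire-/- conditions and lower in both Aire+/+ ones (adjusted p = 0.454). Tnfsf8 was called higher, but was at adjusted p of 0.0804 and 0.151 without the Aire-/- isotype and anti-PD1 conditions in turn. Of the 2 lower genes, Slamf6 held with any 1 condition left out and Cd27 was at 0.183 and 0.203 without the same conditions.

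Effector and tissue lists were varied. Inhibitory receptors had 7 of 9 higher and 1 lower (median 2.27), with Pdcd1 at 132 to 486 CPM against 67.6 to 106 CPM (log2 fold 1.70, adjusted p = 2.56e-05). Lag3, which binds MHC class II, was at 241 to 615 against 33.2 to 108 CPM (log2 fold 2.33, adjusted p = 4.15e-06), while Tox, a factor of exhausted T cells, was lower at 22.4 to 79.3 against 89.3 to 127 CPM (log2 fold -1.15, adjusted p = 0.00406). Residency genes had 9 of 10 higher and 0 lower (median 1.94), each with any 1 condition left out. Cd69, which keeps T cells in tissues, was at 584, 674, 459.6 and 824 CPM against 96.1, 102, 74.0 and 63.7 CPM (log2 fold 2.92, adjusted p = 9.97e-09, 4 of 4 conditions), and Rgs1 was against 78.8, 33.3, 63.8 and 75.5 CPM in spleen (log2 fold 4.62, adjusted p = 8.70e-11). Of 7 cytotoxic genes 7 were higher (median 2.48), including Nkg7 at 325 to 1074 against 115 to 273 CPM (log2 fold 1.66, adjusted p = 6.42e-05). Ctsw was at adjusted p of 0.0874 and 0.0599 without the Aire+/+ isotype and anti-PD1 conditions in turn, and Klrd1 had too few UMIs without Aire-/- anti-PD1. Of the 6 genes of the NK cell list only 1 was tested, Fcer1g, and only through the tumor libraries. It was higher (log2 fold 5.08, adjusted p = 1.36e-08) but too rare to test without Aire+/+ isotype. At least 1 of the NK genes Ncr1, Klrb1c and Klre1 was seen in 5.77% of tumor and 5.53% of splenic members. Of the 112 named calls 108 could still be tested without the cells with NK genes, and 105 of those held. Of 10 Th1 genes 6 were higher (median 0.76), with Bhlhe40 at 504 to 1075 against 29.2 to 48.9 CPM (log2 fold 4.41, adjusted p = 6.46e-11) and Cxcr6, a receptor of tissue T cells, at 412 to 723 against 85.4 to 339 CPM (log2 fold 1.42, adjusted p = 2.66e-05). Without each condition in turn 6, 4, 5 and 4 of the 6 were called. Both Th2 genes tested were higher, Ccr8 with any 1 condition left out and Gata3 at adjusted p of 0.0842 without Aire+/+ anti-PD1. Follicular helper genes split, Maf and Batf higher and Izumo1r, Il6ra and Sh2d1a lower, with Sh2d1a at adjusted p of 0.0841 without Aire+/+ anti-PD1, and Rora was higher. Of 7 chemokine genes 4 were higher (median 1.42), of 10 cytokine receptors 5 were higher and 1 lower (median 0.33), and of 9 cell cycle genes 0 were called by edgeR, 0 had an unadjusted p under 0.05 and 0 were called by DESeq2. Cd2 was higher and Lat lower among 8 signalling genes, Lat only in the fit without Aire+/+ anti-PD1 and in the one on all conditions. Splenic members carried B cell genes at 9.85, 163, 157 and 269.6 CPM, with Cd79a the most abundant in all but the Aire+/+ isotype library. Without the cells with Cd79a or Cd79b UMIs 535 genes were higher in tumor and 394 lower.

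Members were counted by whether they held a UMI of a help ligand gene (Cd40lg, Tnfsf8 or Tnfsf11) and UMIs of at least 2 of 8 regulatory genes (Il2ra, Ikzf2, Il10, Areg, Klrg1, Ebi3, Itgb8 and Ccr8), sets that were chosen after values were seen. A cell without a UMI may still hold the transcript, and whether the groups are kinds of cell was not tested. A help ligand with fewer than 2 regulatory genes was found in 38 members, the regulatory pattern without a help ligand in 25, both in 24 and neither in 17. By library the help pattern alone was in 8, 10, 7 and 13 cells, both in 1, 6, 6 and 11, and the regulatory pattern alone in 6, 11, 6 and 2, the latter lowest with Aire-/- anti-PD1. With or without a help ligand the regulatory pattern was in 7 of 19, 17 of 33, 12 of 22 and 13 of 30 cells, lowest with Aire+/+ isotype. At least 1 help ligand was seen in 59.6% of members, 63.8% of splenic members, 10.4% of Tregs, 40.0% of CD8 T cells and 14.4% of macrophages. Thinned, it was seen in 41 of 104, 148 of 428, 5 of 222, 197 of 1146 and 61 of 2710 cells. Among the thinned macrophages 60 held Tnfsf8 and 0 held Cd40lg. In the spleen the help pattern alone, the regulatory pattern alone, both and neither held 261, 11, 16 and 146 of 434 cells. Members with 2 or more of the 3 help ligands were 0, 4, 10 and 14 in the 4 tumor libraries, 0 with Aire+/+ isotype and most in the Aire-/- libraries.

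At least 2 of the 8 regulatory genes were seen in 47.1% of members, 99.5% of Tregs, 38.7% of CD8 T cells and 6.22% of splenic members. Macrophages, defined by at least 5 C1q UMIs, showed 13.4%. They are an imperfect background, since thinned Ebi3 was in 9.56% of them and in 6.73% of members. After every cell was thinned to 2000 UMIs the shares were 32.7%, 93.2%, 8.64% and 3.04%, with 1.07% in macrophages. Cd40lg was detected in 36.5% of members and, more often, in 218 of 434 splenic members. Thinned, it was detected in 25% of members, 24.3% of splenic members, 2.18% of CD8 T cells, 0.450% of Tregs and 0 of 2710 macrophages. At least 2 of 7 mitotic and cell cycle genes were in 5 of 104 members against 48 of 222 Tregs, and thinned in 3 and 22.

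**Figure D2:**
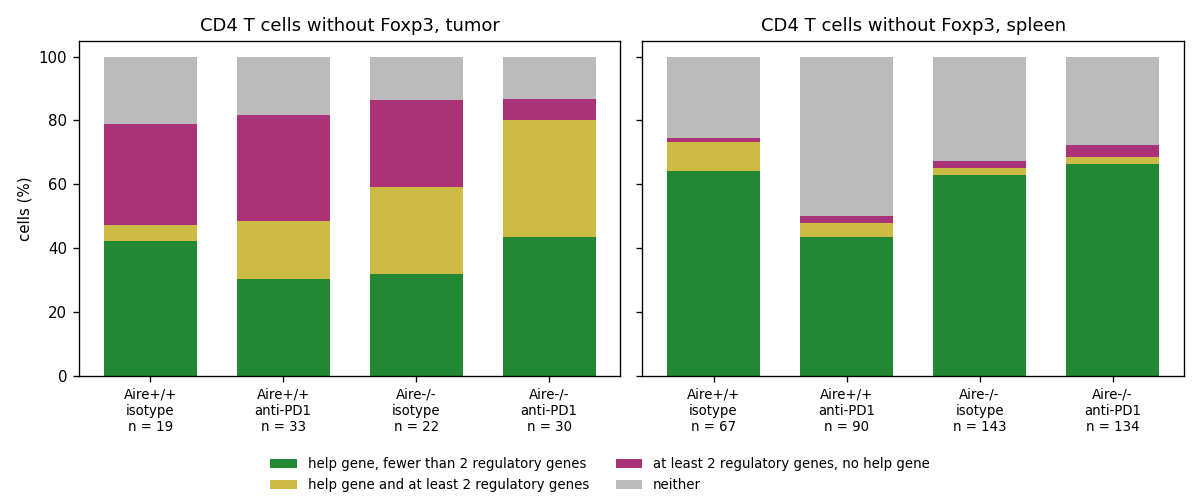
Share of CD4 T cells without Foxp3 (percent of cells) in each tumor and splenic CD45+ library that held a help ligand transcript with fewer than 2 regulatory genes, both, at least 2 regulatory genes without a help ligand, or neither, as stacked bars.

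Conditions were compared within the members as ratios of CPM with exact conditional 95% intervals, over genes with at least 20 UMIs in a pair. With 1 library a condition there was no test, and a gene was counted when its ratio passed 2-fold. Of 2049 genes measured in both treatments, 16 were past 2-fold higher in Aire-/- than Aire+/+ members under isotype as well as under anti-PD1, 15 were lower in both, and 30 went in opposite directions. Over these genes the single pairs had 144 and 73 higher and 116 and 110 lower. The pairs have no library in common, so the 16 and 15 genes rest on all 4 libraries. Genes of the lists among the 16 were Tnfsf8, Tnfsf11, Ifng, Egr1, Fos and Fosb, and the 15 included Il2ra, Itgae, Cd74 and Isg20.

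Tnfsf8 reached 29.2, 104, 348 and 304 CPM, and both Aire-/- values lay above both Aire+/+ values. Aire-/- over Aire+/+ gave a log2 ratio of 3.57 (95% interval 2.14 to 5.49) under isotype and 1.54 (95% interval 0.81 to 2.33) under anti-PD1. Tnfsf11 was at 7.31, 183, 241 and 400.1 CPM with log2 ratios of 5.04 (95% interval 2.49 to 10.38) and 1.12 (95% interval 0.55 to 1.72), its lowest level again with Aire+/+ isotype, at 1 UMI. Without its top cell the ratio under anti-PD1 was 0.50, under 2-fold. Cd40lg was also higher in both Aire-/- libraries, but past 2-fold only under anti-PD1, with log2 ratios of 0.84 (95% interval 0.012 to 1.72) and 2.2 (95% interval 1.38 to 3.11). Ifng had 6, 4, 27 and 23 UMIs in 3, 4, 6 and 8 cells, and its log2 ratios were 1.79 (95% interval 0.48 to 3.35) and 2.48 (95% interval 0.93 to 4.47). Without the top cell, which held 19 UMIs in the Aire-/- isotype library, the isotype ratio of Ifng was 0.32. Fos had log2 ratios of 1.02 (95% interval 0.72 to 1.32) and 2.01 (95% interval 1.48 to 2.57), and under isotype 0.043 without its top cell. Fosb had 1.03 (95% interval 0.037 to 2.12) and 2.02 (95% interval 1.05 to 3.12), and under isotype 0.20 without its top cell. Egr1, an immediate early factor downstream of the T cell receptor, was at 21.9, 44.6, 527 and 91.6 CPM with 4.59 (95% interval 3.0 to 6.89) and 1.04 (95% interval -0.18 to 2.36), the latter interval reaching below 0.

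Il2ra differed the other way, with both Aire-/- values under both Aire+/+ values and log2 ratios of -1.24 (95% interval -1.91 to -0.59) and -1.70 (95% interval -2.31 to -1.12). Without its top cell the isotype ratio was -0.79. Itgae, the integrin chain CD103 that holds T cells to epithelium, was at 153, 139, 56.1 and 14.5 CPM with log2 ratios of -1.45 (95% interval -2.70 to -0.30) and -3.26 (95% interval -5.62 to -1.57), from 5, 9, 3 and 2 cells, and without its top cell -0.91 under isotype. The interferon-induced exonuclease gene Isg20 was at 665, 605, 229.8 and 284 CPM with -1.53 (95% interval -2.10 to -0.99) and -1.09 (95% interval -1.56 to -0.63). Without its top cell the anti-PD1 ratio of Isg20 was -0.80. Cd74 had -1.18 (95% interval -1.58 to -0.79) and -2.60 (95% interval -3.39 to -1.89), and without its top cell the isotype ratio was -0.13. Cd74 leads the dendritic cell list, whose other class II genes H2-Aa and H2-Ab1 also had UMIs, and the part of such cells was not tested. Ecm1 was also under both Aire+/+ values in both Aire-/- libraries, with log2 ratios of -3.75 (95% interval -4.66 to -2.96) and -2.78 (95% interval -3.67 to -1.99), or -0.82 and -1.86 without its top cell.

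**Figure D3:**
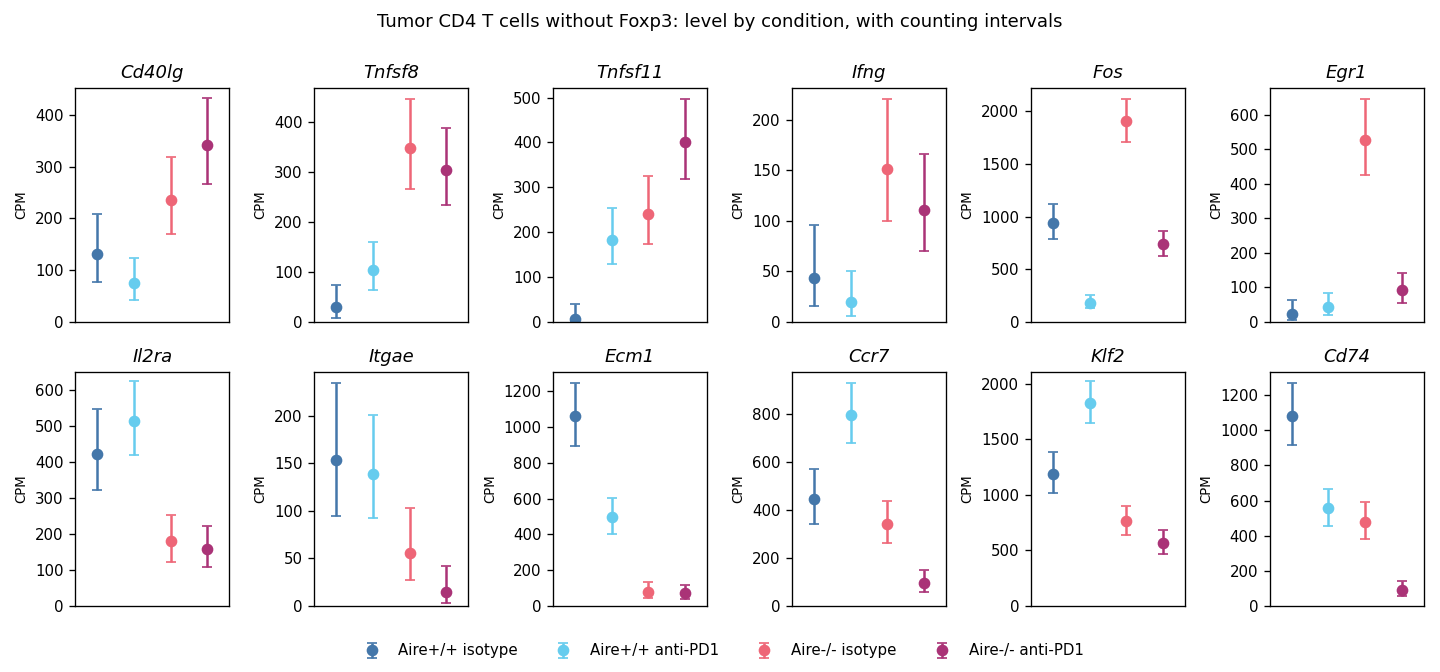
Level in CPM of 12 genes in tumor CD4 T cells without Foxp3 by condition, 1 library each, with exact Poisson 95% intervals for counting error as bars. Tnfsf8 stands at 29.2, 104, 348 and 304 CPM.

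Under isotype, 172 of 2142 genes were past 2-fold higher in Aire-/- members (8.03%) and 129 lower (6.02%), with a median log2 ratio of 0.018 over all of them. Without the deepest member of each library 86 were higher. The largest increases held Csf2, the gene of GM-CSF, at 0, 1, 330 and 0 UMIs, of which 1 cell held 329, and Ccl3, a chemokine of activated T cells, at 14.6, 94.2, 369.9 and 121 CPM (log2 ratio 4.66, 95% interval 2.75 to 7.74). Ifitm1 was higher (log2 ratio 5.11, 95% interval 3.53 to 7.41), and Stmn1, a microtubule regulator of dividing cells, at 21.9, 104, 493 and 24.1 CPM (log2 ratio 4.49, 95% interval 2.90 to 6.80), in 1, 5, 3 and 3 cells. The largest decreases were 1 cell's: of the 2692 UMIs of Gzmc in Aire+/+ isotype members 2689 lay in 1 cell, as did 713 of 713 of Gzmd, 220 of 220 of Gzme, 230 of 230 of Gzmg and 262 of 265 of Spp1, the gene of osteopontin. Of 10 cell cycle genes 10 were higher and 0 lower (median 3.05), carried by few cells, and of 13 cytotoxic genes 1 was higher and 9 lower (median -1.72). Gzmb, spread over 11, 13, 7 and 12 members, had a log2 ratio of -2.57 (95% interval -2.78 to -2.36), or -1.42 without its top cell. Nkg7 had a log2 ratio of -1.72 (95% interval -2.19 to -1.28), or -1.67 without its top cell. The NK cell list moved the same way, with Fcer1g and Tyrobp lower, the 2 of its 6 genes that had 20 UMIs. Without the cells with NK genes 149 genes were past 2-fold higher and 124 lower. Of 12 help genes 3 were higher and 0 lower (median 0.46), and of 14 immediate early genes 4 were higher and 2 lower (median 0.34).

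Under anti-PD1, 139 of 2931 genes were past 2-fold higher in Aire-/- members (4.74%) and 180 lower (6.14%), with a median log2 ratio of 0.017. Cd40lg and Fosb, given above, were among the 5 largest increases. Ifitm2 was at 1023, 59.5, 667 and 815 CPM (log2 ratio 3.78, 95% interval 2.93 to 4.76), in 15 Aire-/- and 8 Aire+/+ cells, Ifitm1 at a ratio of 2.65 (95% interval 1.72 to 3.72), and Rrad, a small GTPase, at 2.34 (95% interval 1.53 to 3.24), of which 1 cell held 59 of 78 UMIs. Ccr7 was high with Aire+/+ anti-PD1 and low with Aire-/- anti-PD1 (log2 ratio -3.05, 95% interval -3.80 to -2.37). Il10 was lower (log2 ratio -3.01, 95% interval -4.53 to -1.78). Penk had 0 UMIs in Aire-/- members against 62, at least 21.3-fold lower at a floor of 3 counts, and Ccl1 had 1 against 65, the latter all in 1 cell, a ratio of -6.06 (95% interval -11.39 to -3.53). Of 13 regulatory genes 6 were lower and 0 higher (median -0.91), with Tnfrsf4 (log2 ratio -1.35, 95% interval -1.59 to -1.12) and Ikzf2 (log2 ratio -1.12, 95% interval -1.87 to -0.41) among them. Klf2 was lower (log2 ratio -1.69, 95% interval -2.0 to -1.38). Help genes split, 3 higher and 3 lower of 13 (median -0.24). Of 16 interferon genes 5 were lower and 0 higher (median -0.53), with Ifit1 at 358, 625, 241 and 260.3 CPM (log2 ratio -1.26, 95% interval -1.75 to -0.79). Immediate early genes had 3 of 15 higher and 0 lower (median 0.44), cell cycle genes 0 of 6 higher and 3 lower (median -1.53), and cytotoxic genes 4 of 11 higher and 1 lower (median 0.77). Of the NK cell list 2 of 6 genes had 20 UMIs, and both, Fcer1g and Tyrobp, were higher in the Aire-/- members, and without the cells with NK genes 127 genes were past 2-fold higher and 178 lower.

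Anti-PD1 over isotype in Aire+/+ mice asked which genes differed with PD-1 blockade where Aire was intact, in libraries that the genotype pairs also use. Of 2407 genes 223 were past 2-fold higher (9.26%) and 98 lower (4.07%), with a median log2 ratio of 0.12. Without the deepest member of each library 148 and 51 genes were past it, and without the cells with NK genes 142 and 56. Of 11 help genes 4 were higher and 0 lower (median 0.99). Icos was highest in this anti-PD1 library (log2 ratio 1.29, 95% interval 0.98 to 1.61), and Tnfrsf4 had a log2 ratio of 1.28 (95% interval 1.02 to 1.56), or 0.99 without its top cell. Of 9 inhibitory receptor genes 4 were higher and 0 lower (median 0.76). Pdcd1 (log2 ratio 1.89, 95% interval 1.15 to 2.70) was in 4, 22, 8 and 16 cells, and Lag3 at 241, 615, 420.4 and 309 CPM (log2 ratio 1.35, 95% interval 0.79 to 1.95), or 0.87 without its top cell. Of 14 regulatory genes 5 were higher and 0 lower (median 0.72), Areg at a ratio of 1.36 (95% interval 0.97 to 1.77), or 0.54 without its top cell. Maf was higher (log2 ratio 1.46, 95% interval 0.70 to 2.29). The largest increases held Ccl1, whose 65 UMIs lay in 1 cell, Penk (log2 ratio 3.81, 95% interval 2.2 to 6.13), Cxcl10, an interferon-induced chemokine (log2 ratio 2.96, 95% interval 2.07 to 4.0, 93 of 126 UMIs in 1 cell), Ccl4 (log2 ratio 2.69, 95% interval 1.89 to 3.6, 103 of 133 in 1 cell) and the tubulin gene Tuba1b (log2 ratio 2.13, 95% interval 1.21 to 3.20). Gzmc, Gzmd, Gzmg, Spp1 and Prf1 led the decreases, with single cells of the Aire+/+ isotype library carrying them. The NK genes Fcer1g and Tyrobp were lower as well. Of 13 cytotoxic genes 2 were higher and 8 lower (median -1.84), and of 16 interferon genes 0 were higher and 0 lower (median 0.13).

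Anti-PD1 over isotype in Aire-/- mice gave 174 of 2667 genes past 2-fold higher (6.52%) and 119 lower (4.46%), with a median log2 ratio of 0.10. Xbp1, a factor of the unfolded protein response, was at 132, 134, 44.8 and 231 CPM (log2 ratio 2.37, 95% interval 1.27 to 3.66), in 21 of 30 cells against 8 of 22. Fasl (log2 ratio 1.88, 95% interval 0.91 to 2.97) and Atf3 (log2 ratio 2.13, 95% interval 1.14 to 3.28) were higher, as was Ifitm3 at 679, 288, 191 and 742 CPM (log2 ratio 1.96, 95% interval 1.42 to 2.54). Rrad, the last of the 5, was at 117, 74.4, 118 and 376 CPM (log2 ratio 1.68, 95% interval 0.97 to 2.45) and turned to -0.31 without its top cell. Csf2 had 330 UMIs under isotype and 0 under anti-PD1. Ccl5, a chemokine of effector T cells, was at 1067, 714, 1121 and 149 CPM (log2 ratio -2.91, 95% interval -3.50 to -2.36), or -1.84 without its top cell, and Egr1 had a log2 ratio of -2.52 (95% interval -3.32 to -1.80), or -1.41 without its top cell. Dusp14, a phosphatase, had -2.95 (95% interval -4.15 to -1.93), but 0.075 without its top cell, and Stmn1 -4.36 (95% interval -6.01 to -3.08). Of 10 cell cycle genes 9 were lower and 0 higher (median -1.99), the Aire-/- isotype library having 2 members with 3 or more of the mitotic genes. Of 10 cytotoxic genes 4 were higher and 0 lower (median 0.52), Nkg7 at a ratio of 1.26 (95% interval 0.81 to 1.71), or 0.80 without its top cell. The NK cell list was also higher in this anti-PD1 library, and without the cells with NK genes 169 genes were past 2-fold higher and 119 lower. Help genes had 1 of 13 higher and 0 lower (median 0.23), regulatory genes 0 of 12 higher and 1 lower (median 0.057), and interferon genes 0 of 15 higher and 0 lower (median 0.11).

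Across both genotypes, of 2155 genes measured in both, 11 were past 2-fold higher with anti-PD1 in Aire+/+ as well as in Aire-/- members, none of them in a list, 4 were lower in both and 28 went in opposite directions, of 186 and 119 higher and 72 and 60 lower in the single pairs. The 4 were Fos, Klrc1, Sdf2 and Tnfsf9, named because they were few and chosen after their values were seen. Fos had log2 ratios of -2.36 (95% interval -2.93 to -1.82) in Aire+/+ and -1.37 (95% interval -1.65 to -1.09) in Aire-/- mice, the latter -0.40 without its top cell. Cd40lg had -0.82 (95% interval -1.91 to 0.25) and 0.54 (95% interval -0.031 to 1.13), intervals that both hold 0.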

How the data were processed

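Droplet libraries of sorted CD45+ or CD8+ cells from tumors and spleens were measured, 16 in all, with both 3' and 5' kinds described in the paper. The authors deposited UMI counts for each gene and cell barcode, made with Cell Ranger. Rows with the same gene symbol were added up. Cells with at least 200 genes and at most 20% mitochondrial UMIs were kept, and the gate for CD4 T cells without Foxp3 was applied to raw UMIs. Tregs met the same gate with at least 1 Foxp3 UMI. CD8 T cells had at least 2 CD3 UMIs, at least 2 of Cd8a and Cd8b1, 0 of Cd4 and Foxp3 and the same C1q and Lyz2 limits. UMIs were summed by library and class and tested with edgeR 4.0.16 in R 4.3.3 (TMM, filterByExpr, quasi-likelihood F test, Benjamini-Hochberg over all genes tested), with the library or condition as a block. Conditions had 1 library each and were compared as ratios of CPM over genes with at least 20 UMIs in a pair, with exact intervals and a floor of 3 counts. Python 3.11.15, numpy 2.4.6, scipy 1.17.1, pandas 2.3.3 and matplotlib 3.10.9 were used. The procedure was tested on simulated data.

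The members and the gene lists were chosen with earlier results of these data known. Genes were named by a rule: of each list 2 to 4 called genes with the highest level or that define the list, the 10 largest log2 folds in each direction among called genes with a mean of at least 50 CPM in the higher class, and for each pair of conditions the 5 largest ratios in each direction among genes with at least 50 UMIs. Alternatives were RLE size factors, DESeq2 1.42.0 with the same block, no filter on low counts, no block, no cell filter, a stricter and a looser gate, no C1q or Lyz2 limit, cells thinned to 2000 UMIs, each library or condition left out, Tregs with at least 2 Foxp3 UMIs, splenic and tumor members with 0 UMIs of Il2ra and Ikzf2, T cells as the denominator of the shares and a minimum of 50 UMIs a pair. List medians with absent genes set at their bound are within 0.001 of those printed. T cell receptor constant genes were not analysed here, some genes of the lists were counted but are not reported here, and entries for vector and tag sequences were left out. The 8 CD8+ libraries served to count barcodes that met the rule, and no doublet caller, ambient RNA correction or clustering was used.

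A median of 4978, 5142, 5872.5 and 5474 UMIs a cell leaves many transcripts unseen, so a cell without a UMI of a gene is not a cell without the transcript. With 19, 33, 22 and 30 members, 1 deep cell can carry a class sum. Mice were pooled before loading, so differences between mice are not measured, and intervals cover counting error only. Libraries used as replicates differ in genotype and treatment.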

Additional observations from a re-analysis of the deposited data

Results flagged for a closer look

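In the CD4 T cells without Foxp3, some genes were past 2-fold in opposite directions in a pair of comparisons of the same kind, with at least 50 UMIs in each pair. The differences between the comparisons were not tested, since each condition had 1 library. The interferon-induced chemokine gene Cxcl10 had log2 ratios of 2.48 for Aire-/- over Aire+/+ under isotype and -1.59 for the same under anti-PD1. For anti-PD1 over isotype it had 2.96 in Aire+/+ and -1.11 in Aire-/- mice, the last -0.26 and under 2-fold without its top cell. Its UMIs lay in 1 cell each for 11 of 11 (Aire+/+ isotype), 93 of 126 (Aire+/+ anti-PD1), 40 of 80 (Aire-/- isotype) and 27 of 43 (Aire-/- anti-PD1). The ratio of -1.59 thus rests largely on 1 cell of the Aire+/+ anti-PD1 library. Whether Cxcl10 moved in opposite directions without that cell was not tested. In the same order of comparisons the chromatin gene Dek had 2.22, -1.28, 1.90 and -1.60, with 27 of 73 UMIs in 1 cell of the Aire-/- isotype library. Hmgn2, a nucleosome-binding protein gene, had 1.73, -1.17, 1.12 and -1.78, with 36 of 65 there in 1 cell. The tubulin gene Tuba1b had 2.89, -1.24, 2.13 and -1.99, with 63 of 106 there and 43 of 71 in the Aire+/+ anti-PD1 library in 1 cell each. Without its top cell the last ratio of Tuba1b was -0.84, under 2-fold. Tubb5, another tubulin gene, had 1.03 for anti-PD1 in Aire+/+ and -1.87 in Aire-/- mice. In 1 cell each lay 108 of its 186 UMIs in the Aire-/- isotype and 46 of 111 in the Aire+/+ anti-PD1 library. Apart from the last ratios of Cxcl10 and Tuba1b, those of these 5 genes are not given here without their top cells. Some of them may fall under 2-fold there. All 5 were lower with Aire+/+ isotype and Aire-/- anti-PD1 than in the remaining libraries.

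The reverse order was seen for 3 genes. Hilpda, induced by low oxygen, had log2 ratios of -1.42, 1.33, -1.42 and 1.32, with 51 of 82 UMIs of the Aire+/+ isotype and 46 of 116 of the Aire-/- anti-PD1 library in 1 cell each. Ifitm3, a membrane protein of the interferon response, had -1.83, 1.37, -1.24 and 1.96, with 58 of 93 and 39 of 154 in 1 cell each there. Without its top cell the ratio of Ifitm3 for anti-PD1 in Aire+/+ mice was -0.35, under 2-fold. Other ratios of Hilpda, Ifitm3 and Plac8 are not given here without their top cells, and some may fall under 2-fold there. Plac8, a gene of activated leukocytes, had -1.53, 1.47, -1.56 and 1.44, with 19 of 42, 15 of 21, 15 of 19 and 17 of 60 of its UMIs in 1 cell of each library. All 3 were higher with Aire+/+ isotype and Aire-/- anti-PD1 than in the other 2 libraries.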

How the results depend on the processing

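Counts of called genes moved with depth, the tool, the gene filter and the libraries used. Against Tregs, thinning each cell to 2000 UMIs gave 124 higher genes, and DESeq2 gave 82, no filter on low counts 296 and leaving out the deepest member of each tumor library 205 lower genes. Against CD8 T cells, thinning gave 105 higher and 88 lower genes, and DESeq2 121, no filter 534 and leaving out the deepest members 344 lower genes. For tumor against spleen, thinning gave 254 and 200, cells with 0 UMIs of Il2ra and Ikzf2 gave 315 and 209, and DESeq2 gave 184 lower genes. With 1 library or condition left out, the higher and lower counts ran over 100 to 187 and 45 to 135 for Tregs, 162 to 233 and 80 to 153 for CD8 T cells and 460 to 589 and 304 to 444 for spleen. Thinning, the filter and left-out libraries change the number of UMIs, genes or samples by construction, and the cause of the other shifts was not tested.

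A named gene too rare to be tested in an alternative gave no value there. Thinned, 44 of 81 were tested against Tregs, 68 of 89 against CD8 T cells and 82 of 112 against spleen. Without the cell filter the cells compared with Tregs were the same, so those 81 values could not move. Of the values of called genes reported here, over all alternatives, 935 of 1084 against Tregs, 1021 of 1129 against CD8 T cells and 1528 of 1599 against spleen kept direction and side of the threshold. The rest kept their direction without the call, 149, 108 and 70 values, except Sh2d1a, at a log2 fold of 0.085 against spleen in cells with 0 UMIs of Il2ra and Ikzf2, and the cause was not tested. The share of all cells was 0.341% in the Aire+/+ isotype library with a stricter gate, 0.887% thinned and 0.990% with no C1q or Lyz2 limit, the latter a wider rule by construction. With T cells as the denominator the shares were 5.86, 9.35, 6.98 and 3.37%, a smaller denominator by construction.

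Counts past 2-fold between conditions are given for Aire-/- over Aire+/+ under isotype, the same under anti-PD1, anti-PD1 over isotype in Aire+/+ and the same in Aire-/- mice. At 50 or more UMIs a pair, 41, 26, 51 and 25 genes were higher and 45, 53, 34 and 22 lower, and after thinning 28, 46, 47 and 56 and 36, 56, 33 and 41, fewer genes or UMIs by construction. A stricter gate gave 110 and 68 for the genotypes under isotype and 51 lower for anti-PD1 in Aire+/+ mice. Leaving out the cells with NK genes gave 142 and 56 for that last pair. Leaving out the deepest members gave 148 and 51 for it and 86 higher for the genotypes under isotype. Alternatives that leave out NK, B or deepest cells or the top cell of a gene were chosen after seeing the data, with Tyrobp and Fcer1g left out of the NK rule because nearly every macrophage carries them.

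Over all alternatives, the ratios of named genes stayed within their interval in 196 of 277, 239 of 272, 175 of 259 and 149 of 200 values. Of the values that stayed, 52, 47, 49 and 35 came from leaving out the cell filter, which kept the same members and could not move them. Some ratios changed sign. Between genotypes under isotype the ratios that changed sign were Gzmc (0.76 with the stricter gate, 2.16 without NK cells, 0.39 without the deepest members and 0.69 without its top cell), Jun (1.5 with the stricter gate), and Nfkbid, Prf1 and Serpinb9 (0.48, 0.10 and -0.51 without their top cells). For anti-PD1 in Aire+/+ mice the stricter gate gave Jun 0.86, Klrk1 1.03 and Ly6c2 0.15, the last at 0.55 without NK cells. There thinning gave Lrrc32 -0.060, Stmn1 -0.060 and Top2a -0.060, Top2a was at -0.19 without the deepest members, and Nfkbid at 0.36 without its top cell. For anti-PD1 in Aire-/- mice Ccr7 was at 0.61 with the stricter gate and Prf1 at -0.13 without NK cells. Without the deepest members Dusp14 was at 0.19 and Tyms at 0.29, and without their top cells Dusp14, Il13, Nt5e, Prf1, Rrad and Tyms were at 0.075, -2.50, -0.18, -0.13, -0.31 and 0.34. Where a top cell was removed, that cell carried the difference by construction, and the cause was not tested for the others.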

Other observations

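Transcripts of secreted cytokines were rare in the CD4 T cells without Foxp3 and often came from single cells. Over the 4 tumor libraries Il2, the growth factor of T cells, counted 0, 2, 22 and 15 UMIs, where 1 cell held 21 of those in the Aire-/- isotype and 1 held 13 in the Aire-/- anti-PD1 library. The Th2 cytokine gene Il4 counted 1, 1, 2 and 36 UMIs and its neighbor Il13 1, 2, 5 and 20, of which single cells of the Aire-/- anti-PD1 library held 36 and 19. Tnf had 3, 3, 10 and 6 UMIs and Il21, a cytokine of follicular helper cells, 0, 5, 1 and 3. The Th17 genes Il17a and Il17f and the Th9 gene Il9 had 0 UMIs in all 4 libraries. The Th1 factor gene Tbx21 had 6, 14, 12 and 15 UMIs, Gzmk, a granzyme of memory T cells, 1, 32, 4 and 0, and Gzma 189, 0, 0 and 40, of which 189 in the Aire+/+ isotype library lay in 1 cell. Ratios of Il2, Il4, Il13 and Gzma between conditions thus rest on single cells.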
